A study of Homo sapiens with 9 samples.

Results

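Protein synthesis in the cytoplasm is run by initiation factors (eIFs), elongation factors (eEFs) and release factors. The eIF4 proteins bind the mRNA cap and unwind the leader, eIF2 delivers the initiator tRNA, eIF3 and the eIF1 family hold the small subunit open for scanning, and eIF5 and eIF5B lead to subunit joining. The eEF1 complex then brings each aminoacyl-tRNA to the ribosome, eEF2 moves the ribosome along, and eRF1 (ETF1) with eRF3 (GSPT1) ends the chain. Several of these genes also carry small nucleolar RNAs (snoRNAs) in their introns. H/ACA snoRNAs are bound by dyskerin, NHP2, NOP10 and GAR1 and guide pseudouridylation, whereas C/D snoRNAs are bound by a different set of proteins and guide ribose methylation.

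The set described here holds every protein-coding gene with a GENCODE symbol of EIF or EEF followed by a digit, together with ETF1 and GSPT1. Kinases with symbols starting EIF2AK and 2 further genes of these families were left out. This gave 67 of the 58425 genes with a matched transcript, and 63 of the 18444 genes that passed the filter on low counts. EEF1AKMT1, EIF3CL and EIF4E1B had at most 3 reads in any library and were not tested, and the Y-linked EIF1AY was not tested and is not described. EIF3C had only 86 to 206 reads per library and has a near-identical copy in EIF3CL, so its values are uncertain. EIF5AL1 and EIF2S3B are near copies of EIF5A and EIF2S3 and are uncertain for the same reason. EEF1G, EEF1AKMT2, EEF1AKMT3, EEF1AKMT4, EEF1E1, EIF4EBP3, EIF6, EIF4A1 and the readthrough genes EEF1E1-BLOC1S5 and EEF1AKMT4-ECE2 share exon sequence with another annotated protein-coding gene, so their reads cannot be fully told apart.

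The libraries were made from nuclear RNA of U2OS, a human osteosarcoma cell line, after depletion of ribosomal RNA. Every group was transfected with siRNA at 15 nM and harvested after 48 hours. The siRNA was a control in siControl, targeted the pseudouridine synthase dyskerin in siDyskerin, and targeted the GAR1 subunit of the same complex in siGAR1. There were 3 libraries per group and 9 in all, named as replicates. The siRNAs are transient knockdowns in 1 cell line, and the RNA was nuclear, so the values are neither cytoplasmic mRNA levels nor protein levels.

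The summed estimated counts were 48838756 to 90698675 per library. DKC1, the gene for dyskerin, fell by 2.79 on the log2 scale after siDyskerin (standard error 0.07, adjusted p = 1.5e-11), and GAR1 fell by 2.68 after siGAR1 (standard error 0.12, adjusted p = 6.1e-08), so the targeted genes matched the labels. Markers of mesenchyme and bone summed to 3608 to 4397 CPM (counts scaled by library size) and were led by VIM and SPARC, with 7 of 8 tested, while COL1A2 and BGLAP were near 0. Among them SPP1 had 7.46 to 9.98 CPM in siControl, 23.3 to 27.3 in siDyskerin and 10.3 to 11.4 in siGAR1. Mitochondrial transcripts summed to 682 to 809 CPM in siControl, 597 to 688 in siDyskerin and 754 to 900 in siGAR1, so that the knockdowns did not overlap. The blood marker CD3E was at 0. Of 5 epithelial markers 4 were tested, and their summed level, nearly all KRT8 and KRT18, was 772 to 887 CPM in siControl, 1160 to 1173 in siDyskerin and 962 to 1151 in siGAR1, with KRT19 near 0. The part of these shifts in the results below was not tested. In bulk RNA, fewer cells with a transcript and less of it per cell cannot be told apart.

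Levels of different genes were compared per length, as normalized reads of the most-read transcript per kilobase (kb) of its effective length. The highest level was that of EEF2, the translocase, with 9428 ± 783 reads per kb in siControl (SD, n = 3), 9310 in siDyskerin and 9108 in siGAR1. EIF4G2, a scaffold related to eIF4G without the cap-binding part, followed with 7833 ± 300 in siControl. EEF1G, a subunit of the eEF1 exchange complex, had 7459 ± 394, EIF4A1, the main helicase of the cap complex, 7024 ± 457, and EIF3E, an eIF3 subunit, 6936 ± 904 reads per kb. From EIF4G2 to EIF3E, neighbours in this order differed by less than the larger of their SDs. The lowest levels among the genes tested were those of EIF3C at 6.54 ± 2.74, EIF2S3B at 12.9 ± 0.444 and EIF4E3, a cap-binding relative of eIF4E, at 15.9 ± 0.46 reads per kb in siControl. With EIF3C, whose values are uncertain, the set spanned more than 3 orders of magnitude, and without EIF3C it spanned less than 3.

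**Figure D1:**
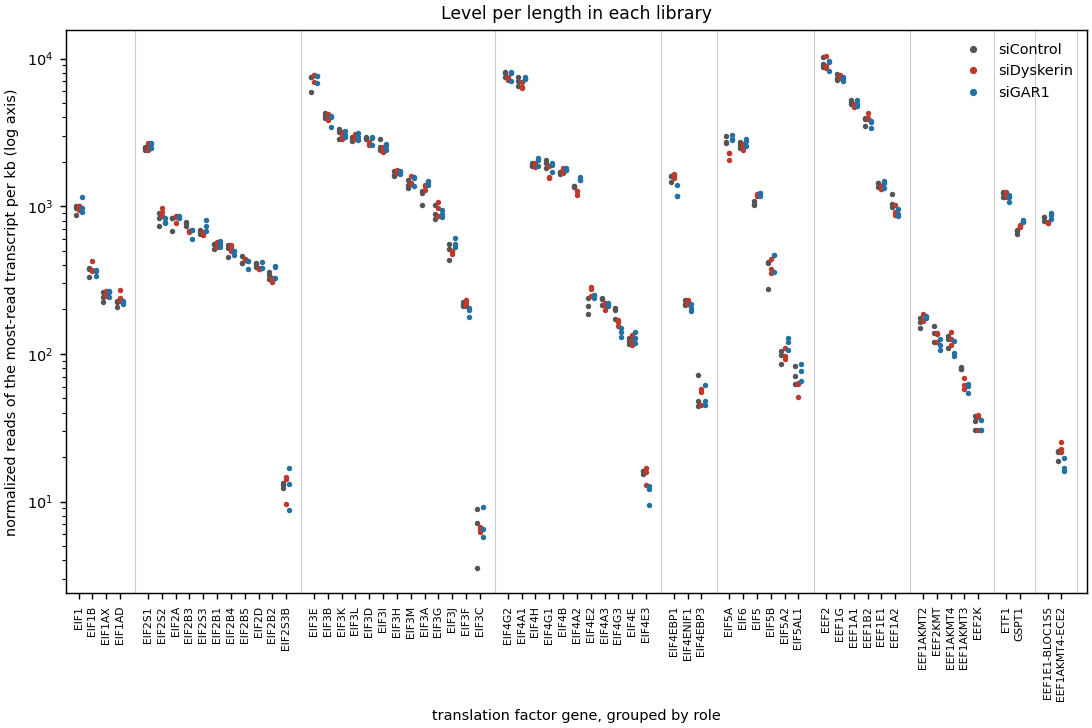
Normalized reads of the most-read transcript per kb (log axis) for each translation factor gene tested, grouped by role and sorted by level; each point is 1 of 9 libraries, coloured by siRNA. EEF2, at 9428 reads per kb in siControl, is the highest and EIF3C, at 6.54, the lowest, and for most genes the 3 colours lie over each other.

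Each role group had its own most abundant genes. In the eIF1 family, EIF1 had 950 ± 66.8 and EIF1B 362 ± 27.7 reads per kb in siControl. In the eIF2 group, EIF2S1, the eIF2 alpha subunit whose phosphorylation shuts down initiation, had 2468 ± 58, and EIF2S2, the beta subunit, 821 ± 82.2. Within eIF3, EIF3B, a core subunit, stood second to EIF3E with 4120 ± 177. Among the eIF5 and eIF6 genes, EIF5A had 2800 ± 169 and EIF6, which keeps the large subunit from joining too early, 2591 ± 121 reads per kb. Among the regulators of eIF4E, EIF4EBP1 had 1550 ± 84.1 and EIF4ENIF1, which shuttles eIF4E into the nucleus, 221 ± 9.63. Of the modifiers of elongation factors, EEF1AKMT2 with 163 ± 12.6 and EEF2KMT with 138 ± 17.1 were highest, both far below EEF1A1 and EEF2. The readthrough genes EEF1E1-BLOC1S5 and EEF1AKMT4-ECE2 had 828 ± 25.6 and 20.8 ± 1.68. ETF1 and GSPT1, the release factors, had 1211 ± 49.7 and 673 ± 18 reads per kb.

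Few translation factor genes passed the test after either knockdown, and their changes were small. After siDyskerin, 0 members were higher and 1 was lower at an adjusted p under 0.01 (edgeR's quasi-likelihood test, Benjamini-Hochberg adjusted over all genes), where 3.08% of all genes tested were higher and 3.32% lower. At an unadjusted p under 0.05, 4 members were higher and 6 lower, which is 15.9% of members against 26.1% of all genes tested. The median log2 fold change was 0.008 over the members and 0.003 over all genes, and single values ran from -0.37 for EEF1AKMT3 to 0.24 for EIF4E2. After siGAR1, 1 member was higher and 1 lower, where 1.63% of all genes were higher and 1.79% lower. At an unadjusted p under 0.05, 7 members were higher and 7 lower, or 22.2% of members against 24.0% of all genes, a share near the background. The median was 0.012 over the members and 0.009 over all genes, and the values ran from -0.46 to 0.32. With DESeq2 9 members passed after siGAR1, of 62 tested, where 9.33% of all genes did. Both knockdowns were set against the same 3 siControl libraries.

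The precision of these values was high enough to bound most of them. After siDyskerin the 95% confidence interval of the log2 fold change lay within 0.5 of 0 for 57 of the 63 members, which is 90.5%, against 52.8% of all genes and 64.1% of protein-coding genes tested. After siGAR1 it did so for 52 members, or 82.5%, against 53.9% of all genes and 65.6% of protein-coding genes. This margin was chosen after the values were seen. No member differed by 1 or more on the log2 scale in either comparison. The width of an interval depends on read depth, which was not matched between the members and the other genes.

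**Figure D2:**
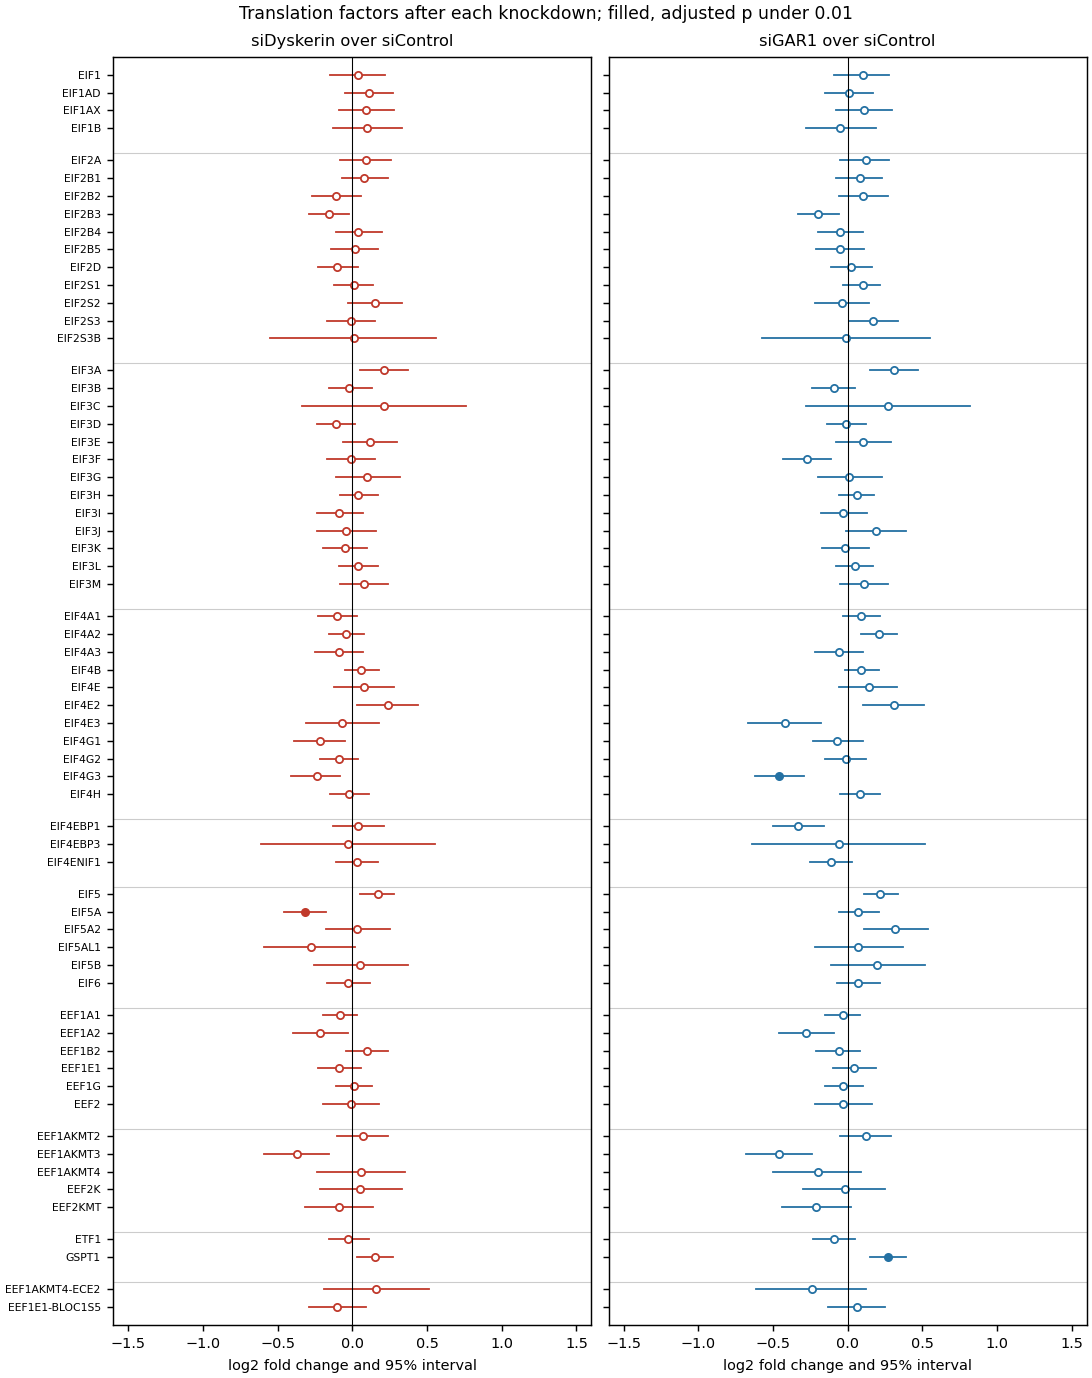
Log2 fold change (x axis) with its 95% confidence interval for the 63 translation factor genes tested, in rows grouped by role, after siDyskerin on the left and siGAR1 on the right; filled points passed at an adjusted p under 0.01. EIF5A on the left and EIF4G3 and GSPT1 on the right are the only filled points, and among the widest intervals are those of EIF3C, EIF4EBP3 and EIF2S3B, which had few reads.

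In the eIF1 and eIF2 groups no gene passed after either knockdown in the main edgeR fit. EIF2B3 passed after siGAR1 with DESeq2 on counts rebuilt from TPM. The 4 eIF1 family genes tested had log2 fold changes of 0.04 to 0.11 after siDyskerin and of -0.05 to 0.11 after siGAR1. The eIF2 group held 11 genes, those of eIF2 and of its exchange factor eIF2B together with EIF2A, EIF2D and EIF2S3B. These 11 genes ranged from -0.16 for EIF2B3 to 0.15 for EIF2S2 after siDyskerin. After siGAR1 they ranged from -0.20 for EIF2B3 to 0.17 for EIF2S3, the eIF2 gamma subunit. EIF2S1 gave 0.01 (standard error 0.06) and 0.10 (standard error 0.06).

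No eIF3 gene passed in either comparison in the main edgeR fit, and DESeq2 called EIF3A and EIF3F after siGAR1. Of 13 eIF3 genes tested, 7 were above and 6 below 0 after siDyskerin, with a median of 0.04. EIF3A, the largest eIF3 subunit, had 9487, 11747 and 11449 normalized reads in siControl, 12072, 12963 and 12775 in siDyskerin and 13780, 13629 and 13130 in siGAR1. All 6 knockdown libraries lay above the siControl libraries, but the differences of 0.21 and 0.31 on the log2 scale did not pass (adjusted p = 0.088 and 0.022). EIF3A passed after siGAR1 also with edgeR without the filter on low counts and with its most-read transcript alone. EIF3F, a subunit with a deubiquitinase-like fold, had 3959, 3659 and 3948 reads in siControl, 4093, 3665 and 3711 in siDyskerin and 3414, 2939 and 3233 in siGAR1. Only the siGAR1 libraries were low, with a log2 fold change of -0.27 that did not pass (adjusted p = 0.039).

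The eIF4 group held 1 of the 2 genes that passed after siGAR1. EIF4G3, a scaffold that links the cap-binding protein to eIF3, had 7089, 8045 and 8279 normalized reads in siControl, 6234, 6929 and 6595 in siDyskerin and 5682, 5261 and 6122 in siGAR1. The 3 groups did not overlap, and siGAR1 was lowest. EIF4G3 fell by 0.46 on the log2 scale after siGAR1 (standard error 0.08, adjusted p = 0.0028), and the value after siDyskerin was -0.24 (adjusted p = 0.054). The call after siGAR1 was lost without siControl replicate 2 or 3 (adjusted p = 0.013 and 0.016) or without siGAR1 replicate 1 or 2 (0.012 and 0.014), at -0.41 to -0.46 on the log2 scale. The difference between the knockdowns, 0.21 on the log2 scale, did not pass (adjusted p = 0.10).

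The other scaffolds and the cap-binding proteins did not pass in the main edgeR fit. Without the filter on low counts, EIF4G1 passed with edgeR after siDyskerin. EIF4G1, the main scaffold, gave -0.22 after siDyskerin and -0.07 after siGAR1 (adjusted p = 0.086 and 0.66), and EIF4G2 gave -0.09 and -0.01. EIF4E, the cap-binding protein itself, gave 0.08 and 0.14, each with a standard error of 0.09. EIF4E2, a cap-binding repressor, gave 0.24 and 0.31 (adjusted p = 0.13 and 0.064), and passed after siGAR1 with DESeq2 on counts rebuilt from TPM. EIF4E3 had 452, 459 and 465 reads in siControl, 474, 391 and 450 in siDyskerin and 350, 299 and 380 in siGAR1, and its value of -0.42 after siGAR1 did not pass (adjusted p = 0.035), although DESeq2 called it. EIF4B and EIF4H, which assist the helicase, stayed between -0.02 and 0.09.

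EIF4EBP1 encodes a repressor that holds eIF4E away from the scaffold until mTOR phosphorylates it. It had 2419, 2374 and 2206 normalized reads in siControl, 2440, 2312 and 2450 in siDyskerin and 1717, 2047 and 1796 in siGAR1. The siGAR1 libraries lay below all others, while the other groups overlapped. EIF4EBP1 was higher in siDyskerin than in siGAR1 by 0.37 on the log2 scale (standard error 0.08, adjusted p = 0.0075). Against siControl the values were 0.04 after siDyskerin (adjusted p = 0.81) and -0.33 after siGAR1 (adjusted p = 0.018). The fall after siGAR1 passed in 5 of 19 alternatives, among them DESeq2 and edgeR without the filter on low counts. The call between the knockdowns was lost in 7 of the 9 fits that left out 1 library (siControl replicates 2 and 3, each siDyskerin replicate, and siGAR1 replicates 1 and 3), with adjusted p-values of 0.011 to 0.045.

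In the direct comparison of the knockdowns 1 member was higher and 2 were lower in siDyskerin than in siGAR1, where 2.61% of all genes tested were higher and 2.78% lower. At an unadjusted p under 0.05 the shares were 25.4% of members and 25.5% of all genes. The other member called with EIF5A and EIF4EBP1 was EIF4A2, a helicase close to EIF4A1. EIF4A2 had 39399, 40365 and 39564 normalized reads in siControl, 37086, 39314 and 39721 in siDyskerin and 48457, 44744 and 44870 in siGAR1. The siGAR1 libraries were above all others. EIF4A2 was lower in siDyskerin than in siGAR1 by -0.25 on the log2 scale (standard error 0.06, adjusted p = 0.0095), with -0.04 and 0.21 against siControl (adjusted p = 0.73 and 0.031). This call sat at the threshold and was lost in 14 of 19 alternatives, 7 of them fits that left out 1 library (siControl replicates 2 and 3, each siDyskerin replicate, and siGAR1 replicates 1 and 2), with adjusted p-values of 0.020 to 0.061. EIF4A1 gave -0.10 and 0.09 against siControl and -0.19 between the knockdowns (adjusted p = 0.31, 0.37 and 0.048).

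EIF5A was the only member that passed after siDyskerin. It encodes a factor that carries the amino acid hypusine and helps the ribosome past difficult peptide bonds. EIF5A (ENSG00000132507.18; GRCh38 chr17:7306999-7312463, plus strand) had 30529, 27628 and 27910 normalized reads in siControl, 23721, 23876 and 21305 in siDyskerin and 30302, 29324 and 31005 in siGAR1. The siDyskerin libraries lay below all others, and siControl and siGAR1 overlapped. After siDyskerin EIF5A fell to 0.80 of the siControl level, or by 0.32 on the log2 scale (standard error 0.06, adjusted p = 0.0039), while siGAR1 gave 0.07 (adjusted p = 0.52). It was also lower in siDyskerin than in siGAR1, by -0.40 (standard error 0.06, adjusted p = 0.0012). The call against siControl was lost without siControl replicate 1 (-0.28, adjusted p = 0.012) or siDyskerin replicate 3 (-0.28, adjusted p = 0.024), and the call against siGAR1 held in all 19 alternatives.

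The relatives of EIF5A gave other values. EIF5AL1, its near copy, had -0.28 after siDyskerin and 0.07 after siGAR1 (adjusted p = 0.22 and 0.80), and reads of the 2 genes may be shared. EIF5A2, a second hypusine-bearing gene, had 0.03 and 0.32 (adjusted p = 0.88 and 0.063). Of the enzymes that make hypusine, DHPS, the deoxyhypusine synthase, had 5241, 5065 and 4681 normalized reads in siControl, 4099, 4009 and 3834 in siDyskerin and 5127, 4693 and 4747 in siGAR1. Here too the siDyskerin libraries lay below all others, and DHPS fell by 0.33 on the log2 scale after siDyskerin (standard error 0.07, adjusted p = 0.0054). This call was lost without siControl replicate 1 or 2 or without any 1 of the siDyskerin replicates. DOHH, which completes the modification, gave -0.17 (adjusted p = 0.52) from 89 to 225 reads per library.

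EIF5, the GTPase activator of eIF2, and EIF6 did not pass with edgeR, and DESeq2 called EIF5 after siGAR1. EIF5 had 29475, 30686 and 29024 normalized reads in siControl, 32974, 34117 and 33110 in siDyskerin and 35402, 35357 and 33230 in siGAR1. Every knockdown library lay above every siControl library, but the log2 fold changes of 0.17 and 0.22 did not pass (adjusted p = 0.055 and 0.021). EIF5B, the GTPase of subunit joining, varied widely, from 4490 to 7540 normalized reads over the libraries, and gave 0.05 and 0.20 (standard error 0.15 for each).

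No elongation factor passed. EEF1A1, which carries aminoacyl-tRNA, had 165379, 161345 and 155532 normalized reads in siControl, 152534, 147960 and 154853 in siDyskerin and 156837, 165702 and 148572 in siGAR1. The siDyskerin libraries lay just below the siControl libraries and the siGAR1 libraries overlapped them, with log2 fold changes of -0.08 and -0.03 (standard error 0.05 for each, adjusted p = 0.38 and 0.76). EEF2 gave -0.01 and -0.03, each with a standard error of 0.09. EEF1B2 and EEF1G, exchange factors of eEF1A, gave 0.10 and 0.01 after siDyskerin and -0.06 and -0.03 after siGAR1. The furthest from 0 was EEF1A2, a tissue-restricted form of eEF1A, with -0.22 and -0.28 (adjusted p = 0.12 and 0.061).

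Of the genes that modify elongation factors, 5 were tested and 0 passed in the main edgeR fit. EEF1AKMT3, a lysine methyltransferase of eEF1A, had 507, 500 and 508 normalized reads in siControl, 359, 425 and 383 in siDyskerin and 385, 342 and 374 in siGAR1. All knockdown libraries lay below siControl, with log2 fold changes of -0.37 and -0.46 that did not pass (adjusted p = 0.024 and 0.012). It passed with DESeq2 in both comparisons. After siGAR1 it passed also in edgeR fits without the filter, with its most-read transcript and with protein-coding transcripts only. Its exons share 242 bases with an overlapping protein-coding annotation. EEF2K, the kinase that inhibits eEF2, gave 0.05 and -0.02, each with a standard error of 0.13.

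The release factor gene GSPT1 (ENSG00000103342.13; GRCh38 chr16:11868128-11916082, minus strand) passed after siGAR1. It had 19380, 19183 and 17882 normalized reads in siControl, 20533, 21278 and 20732 in siDyskerin and 22350, 23017 and 22664 in siGAR1. The 3 groups did not overlap, and siGAR1 was highest. GSPT1 rose by 0.27 on the log2 scale after siGAR1 (standard error 0.06, adjusted p = 0.0079), and siDyskerin gave 0.15 (adjusted p = 0.098). The call was lost in 13 of 19 alternatives, among them each of the 9 fits that left out 1 library, with adjusted p-values of 0.011 to 0.062 in those 13 and a log2 fold change of 0.22 to 0.29. Its partner ETF1 gave -0.03 and -0.09, each with a standard error of 0.06.

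**Figure D3:**
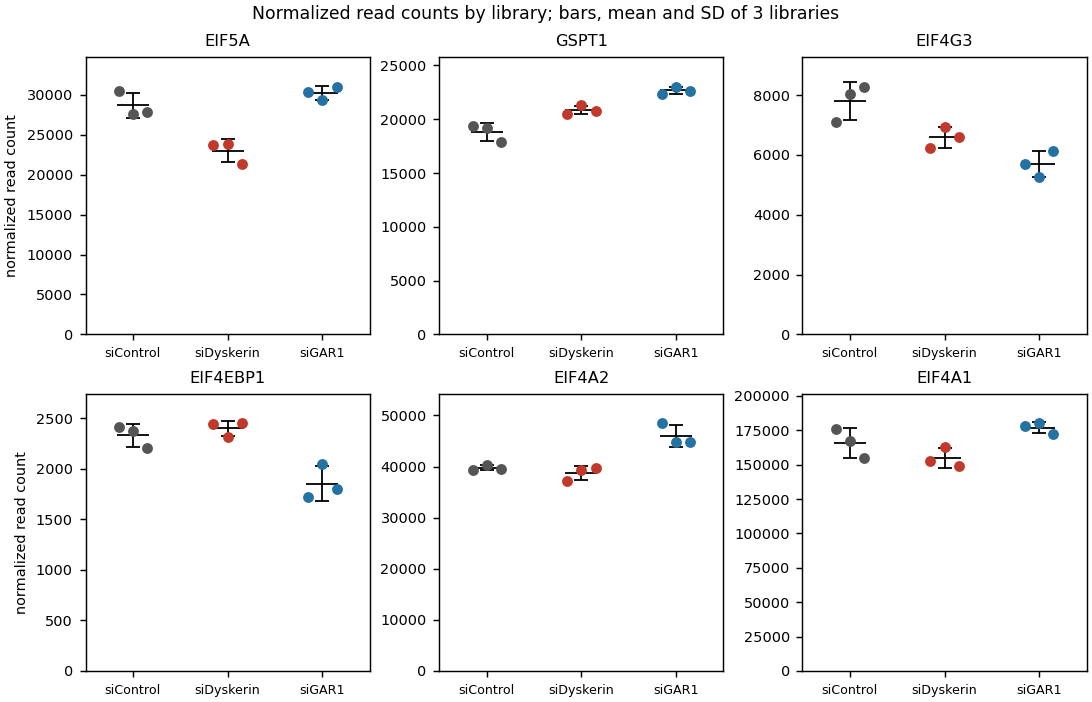
Normalized read counts (y axis, from 0) of the 5 translation factor genes that passed in a comparison and of EIF4A1; each point is 1 library, and bars give the mean and SD of the 3 libraries of a group. EIF5A is low in siDyskerin alone, at 21305 to 23876, EIF4EBP1 is low and EIF4A2 high in siGAR1 alone, and the libraries of GSPT1 and EIF4G3 do not overlap between groups, although only siGAR1 against siControl passed.

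Within the spans of 9 members lie 19 annotated snoRNA genes on the same strand, of which 7 had enough reads to be tested. The hosts were EEF1B2, EIF4G1, EIF4A2, EIF3A, EIF4G2, EIF5, EIF4A1, EEF2 and EIF1AX, and the 12 snoRNA genes not tested, all those of EEF1B2, EIF4G1, EIF3A, EIF5, EEF2 and EIF1AX among them, had at most 13 reads in any library. The sequences below, read from GRCh38 with the GENCODE 44 positions, are shown because these genes split by family. Capitals mark the ACA box within the last 10 bases of the H/ACA genes and the CTGA of the D box within the last 20 bases of the C/D gene, on the strand of the gene.
SNORA48 in EIF4A1 (chr17:7574713-7574847, plus strand): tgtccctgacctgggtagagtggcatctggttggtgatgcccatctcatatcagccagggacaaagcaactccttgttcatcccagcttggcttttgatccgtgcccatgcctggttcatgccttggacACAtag
SNORA67 in EIF4A1 (chr17:7577955-7578091, plus strand): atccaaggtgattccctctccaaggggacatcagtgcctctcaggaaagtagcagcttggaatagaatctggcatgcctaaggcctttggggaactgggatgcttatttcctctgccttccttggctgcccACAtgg
SNORA63 in EIF4A2 (chr3:186787300-186787431, plus strand): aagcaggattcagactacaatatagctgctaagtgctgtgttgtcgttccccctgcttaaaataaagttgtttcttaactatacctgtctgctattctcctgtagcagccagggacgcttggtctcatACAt
SNORA4 in EIF4A2 (chr3:186787612-186787749, plus strand): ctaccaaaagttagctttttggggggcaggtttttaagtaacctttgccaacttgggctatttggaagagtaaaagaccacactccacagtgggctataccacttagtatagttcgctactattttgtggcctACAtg
SNORD10 in EIF4A1 (chr17:7576811-7576952, plus strand): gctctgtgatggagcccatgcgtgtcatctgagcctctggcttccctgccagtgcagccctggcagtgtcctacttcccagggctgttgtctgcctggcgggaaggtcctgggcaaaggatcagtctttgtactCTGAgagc

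An ACA in the last 10 bases was found in 82.2% of 214 annotated SNORA genes and in 6.1% of 313 SNORD genes, and a CTGA in the last 20 bases in 7.9% and 90.1%. The annotated end of SNORA81 in EIF4A2 held no ACA in that window, nor did that of SNORD97 in EIF4G2 hold a CTGA, and they were assigned to a family by symbol alone.

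All 5 H/ACA genes tested within members passed as lower after siDyskerin, where 3.32% of all genes tested were lower, and neither C/D gene passed. The study reported lower levels of noncoding RNAs, mainly small nucleolar and Cajal body RNAs, after depletion of dyskerin. Such falls were thus not particular to snoRNAs within these hosts. SNORA48 had 213, 226 and 243 normalized reads in siControl, 67.4, 92.8 and 62.2 in siDyskerin and 307, 238 and 171 in siGAR1. Its siDyskerin libraries lay far below the rest, and SNORA48 fell by 1.59 on the log2 scale (standard error 0.21, adjusted p = 1.9e-04). SNORA67 had 58.7, 52.9 and 49.1 reads in siControl, 15.2, 24.5 and 11.3 in siDyskerin and 72.7, 55.6 and 61.6 in siGAR1, and fell by 1.61 (adjusted p = 0.0011). The 3 genes tested in EIF4A2 fell as well, with log2 fold changes of -1.24 for SNORA81, -1.44 for SNORA63 and -1.86 for SNORA4 (adjusted p = 0.0054, 4.1e-04 and 7.3e-04). SNORA81 did not pass in any of the 6 fits that left out a siControl or siDyskerin library.

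After siGAR1, 0 of the 7 passed, where 1.63% of all genes were higher and 1.79% lower. At an unadjusted p under 0.05 there were 0, against 24.0% of all genes, and 0 passed with DESeq2. The values ran from -0.48 for SNORA4 to 0.35 for SNORD97. Each of the 5 H/ACA genes was lower in siDyskerin than in siGAR1, by -1.22 to -1.84 on the log2 scale (adjusted p = 1.9e-04 to 0.0085). Of all genes, 2.78% were lower in this comparison. The C/D genes had lower values in siDyskerin as well, -0.65 for SNORD97 and -0.35 for SNORD10, without passing (adjusted p = 0.065 and 0.17). Thus all 7 genes were below 0 between the knockdowns, each at an unadjusted p under 0.05, against 25.5% of all genes. The count of 5 that passed dropped to 2 without siDyskerin replicate 1 and to 3 without siDyskerin replicate 3 or siGAR1 replicate 1. SNORD10, the C/D gene in the same host as SNORA48 and SNORA67, had 157, 139 and 158 reads in siControl, 120, 143 and 122 in siDyskerin and 196, 149 and 147 in siGAR1. Both knockdowns overlapped siControl, with log2 fold changes of -0.24 and 0.12 (adjusted p = 0.38 and 0.69), while every siDyskerin library lay below every siGAR1 library. Reads counted for a snoRNA gene can also come from the unspliced host, and the share of such reads was not tested.

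**Figure D4:**
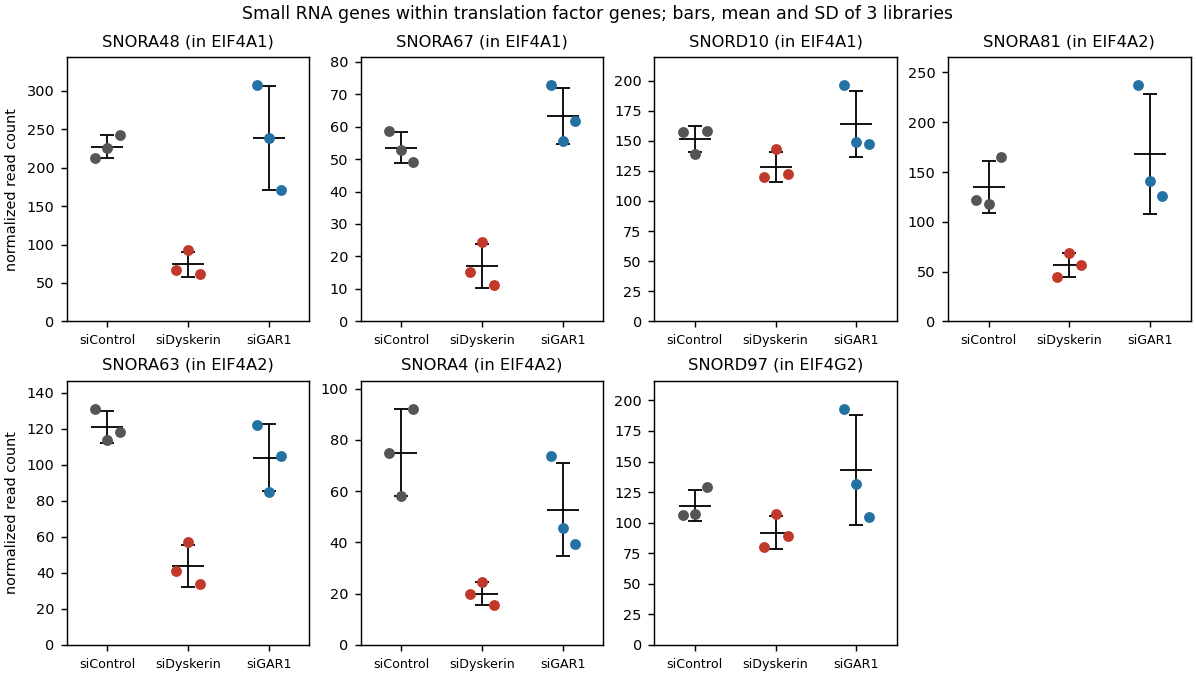
Normalized read counts (y axis, from 0) of the 7 snoRNA genes tested within EIF4A1, EIF4A2 and EIF4G2; each point is 1 library, and bars give the mean and SD of 3 libraries. The 5 SNORA genes are low in siDyskerin, as for SNORA48 at 62.2 to 92.8 reads, whereas SNORD10 and SNORD97 overlap between siControl and siDyskerin.

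After siDyskerin the sums of the host genes EIF4A1 and EIF4A2 changed less than their H/ACA genes. EIF4A1 gave -0.10 (standard error 0.06) and EIF4A2 -0.04 (standard error 0.06) after siDyskerin, beside falls of more than 1 on the log2 scale in the 5 H/ACA genes they hold. Counted over protein-coding transcripts alone, EIF4A2 gave 0.03 after siDyskerin (adjusted p = 0.83). Without transcripts over small RNA genes it gave 0.01 (adjusted p = 0.97). Its most-read transcript, the retained-intron EIF4A2-219, which holds SNORA81, SNORA63 and SNORA4, gave -0.15 (adjusted p = 0.1). Between the knockdowns both hosts were lower in siDyskerin, as their H/ACA genes were. The values were -0.25 for EIF4A2 and -0.19 for EIF4A1 (adjusted p = 0.0095 and 0.048). The part of snoRNA reads in these values was not tested.

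The transcripts of a gene were then compared with each other. Transcript usage, the change of 1 transcript relative to the others of its gene, passed in 1 of 57 members tested after siDyskerin, where 0.174% of 12644 genes passed. It passed in 0 members after siGAR1, where 0.166% of genes passed, and in 1 between the knockdowns, where 0.206% passed. The member was EIF4A1 in both cases, with adjusted p-values of 1.1e-07 and 1.2e-09 from edgeR's diffSpliceDGE with the Simes method. It passed in both comparisons in each of the 11 alternatives tried. The test takes the counts of transcripts as separate. A read may have been counted in several transcripts, as described below, so these p-values are uncertain.

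Of its 36 transcripts tested, the one furthest from the others was EIF4A1-212 (GRCh38 chr17:7572828-7575077, plus strand), a retained-intron transcript of 2 exons and 569 bases whose exons hold the whole of SNORA48. It had 423, 427 and 425 normalized reads in siControl, 227, 263 and 218 in siDyskerin and 555, 461 and 414 in siGAR1. Its siDyskerin libraries lay well below the others. Relative to the rest of the gene it changed by -0.74 on the log2 scale after siDyskerin. The other transcripts ranged from -0.07 for EIF4A1-230, which also spans SNORA48 but had 1533 to 2452 reads, to 0.05 for EIF4A1-226. The main coding transcript EIF4A1-201 changed by 0.00.

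In 16 of 16 pairs of nested member transcripts, the longer one had at least as many reads as the one inside it, as if a read that matches several transcripts had been counted in each, and on that reading the reads of SNORA48 can be set against those of EIF4A1-212. With the SNORA48 reads subtracted, EIF4A1-212 had 197 ± 14.2 reads in siControl (SD, n = 3), 162 ± 7.36 in siDyskerin and 238 ± 13.6 in siGAR1. The values of the remainder were 209, 201 and 182, then 160, 170 and 156, and then 248, 222 and 243, so siDyskerin lay below siControl by less than before the subtraction, and siGAR1 lay above both without overlap. SNORA48 itself had 227 ± 15 and 74.2 ± 16.4 reads in siControl and siDyskerin. The remainder was not tested.

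**Figure D5:**
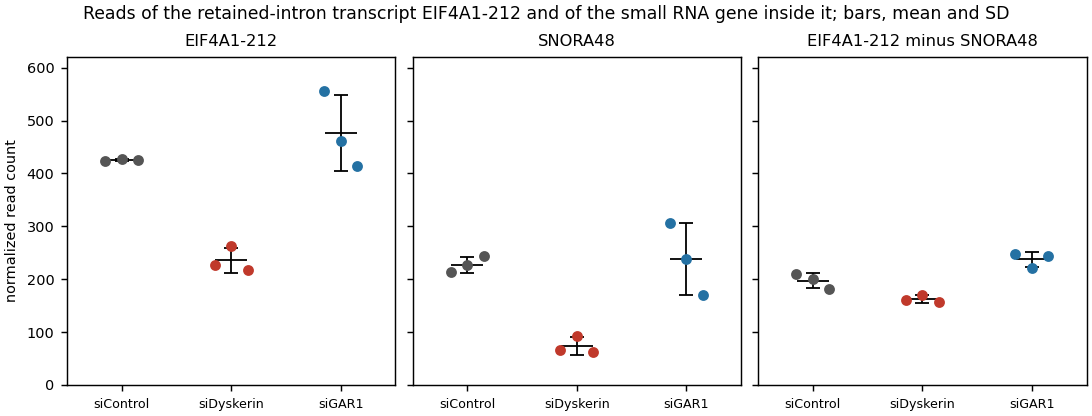
Normalized read counts (y axis, from 0) of the retained-intron transcript EIF4A1-212, of SNORA48, which lies inside it, and of their difference; each point is 1 library, and bars give the mean and SD of 3 libraries. The mean of EIF4A1-212 is 425 in siControl and 236 in siDyskerin, while the difference moves from 197 to 162.

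EIF4G3 came next after siGAR1, without passing (adjusted p = 0.046). There its transcript EIF4G3-213, annotated without a defined coding sequence, changed by 0.75 on the log2 scale relative to the rest of the gene, whereas its most-read coding transcript EIF4G3-212 changed by 0.00.

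Many mRNAs for the translation machinery start with a C followed by a run of pyrimidines, the terminal oligopyrimidine motif through which LARP1 and mTOR act on their translation. RefSeq start sites (GRCh38.p14) were matched by symbol for 55 members. A C at the start site followed by at least 4 pyrimidines, on the strand of the gene, was found in 13 of them, or 23.6%, against 5.1% of 27305 genes in the table. The windows below run from 10 bases before the start site to 20 bases from it, with the pyrimidine run in capitals. The first 4 hold it, and EIF5A, the member that passed after siDyskerin, does not at any of its listed starts.
EEF1A1 (chr6:73521013-73521042, minus strand): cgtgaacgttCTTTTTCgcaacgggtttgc
EEF2 (chr19:3985444-3985473, minus strand): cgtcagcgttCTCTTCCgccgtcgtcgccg
EIF3F (chr11:7987327-7987356, plus strand): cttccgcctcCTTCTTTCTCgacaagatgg
EIF4A2 (chr3:186783567-186783596, plus strand): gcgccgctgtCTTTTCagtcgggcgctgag
EIF5A (chr17:7306989-7307018, plus strand): tgggaacccgaccacactagcgcgctagaa

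The values of members with and without this start were set side by side, without a test of the difference. After siDyskerin the median log2 fold change was -0.01 over the 13 members with the run, with a range of -0.11 to 0.10, and 0.01 over the 40 tested without it, with a range of -0.32 to 0.24. After siGAR1 the medians were -0.01 and 0.05, with ranges of -0.27 to 0.21 and -0.46 to 0.32. A start site in the table says nothing of which start these cells used.

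A list of 37 genes that act on translation factors or beside them was made with earlier results of these data known. Of these, 3 were higher and 2 lower after siDyskerin, where 3.08% of all genes tested were higher and 3.32% lower. After siGAR1, 1 was higher and 1 lower, where 1.63% of all genes were higher and 1.79% lower. These shares of the list were above those of all genes, but rest on 5 and 2 genes, and the difference was not tested. At an unadjusted p under 0.05, 6 were higher and 4 lower in each of these comparisons. Of all genes, 26.1% were under it after siDyskerin and 24.0% after siGAR1, so at this threshold the list was near the background. ABCE1, which splits ribosomes after termination, had 7116, 8504 and 7697 normalized reads in siControl, 9937, 11724 and 10822 in siDyskerin and 10352, 10827 and 11914 in siGAR1. Both knockdowns lay above siControl, and ABCE1 rose by 0.48 and 0.51 on the log2 scale (adjusted p = 0.0015 and 0.0020). MKNK2, a kinase of eIF4E, had 4020, 3403 and 3475 reads in siControl, 2481, 2334 and 2382 in siDyskerin and 2657, 2796 and 2253 in siGAR1. It fell by 0.60 and 0.50 (adjusted p = 4.9e-04 and 0.0035). After siDyskerin, PAIP2, which takes poly(A)-binding protein away from the cap complex, rose by 0.46, and GSPT2, a second eRF3 gene, by 0.39 (adjusted p = 6.1e-04 and 0.0095), and DHPS fell as described above. The call of GSPT2 sat at the threshold and was lost without any 1 of the siControl or siDyskerin libraries, without siGAR1 replicate 1 or 2, and with lengthScaledTPM counts (counts rebuilt from TPM). The call of ABCE1 was lost without siControl replicate 3 or siDyskerin replicate 2. The count of 5 after siDyskerin dropped to 3 without any 1 of the siControl libraries or without siDyskerin replicate 3, and to 2 without siDyskerin replicate 2. The count of 2 after siGAR1 dropped to 1 without siControl replicate 1 or 3 or siGAR1 replicate 1.

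Between the knockdowns 2 of the 37 were higher in siDyskerin and 1 was lower, where 2.61% of all genes were higher and 2.78% lower. ATF4, a transcription factor translated when eIF2 alpha is phosphorylated, had 22686, 23292 and 20256 normalized reads in siControl, 23803, 25356 and 22421 in siDyskerin and 16633, 19632 and 15171 in siGAR1. The siGAR1 libraries were lowest, and ATF4 was higher in siDyskerin than in siGAR1 by 0.48 on the log2 scale (standard error 0.09, adjusted p = 0.0034). PPP1R15A and PPP1R15B, which bring a phosphatase to eIF2 alpha, went opposite ways, with -0.51 and 0.31 (adjusted p = 0.0043 and 0.0086). MTOR, LARP1 and PABPC1 passed in no comparison, with values of -0.03, 0.14 and 0.04 after siDyskerin. The count of 3 between the knockdowns dropped to 1 without siDyskerin replicate 1 or 3 or siGAR1 replicate 2 or 3, and to 0 without siDyskerin replicate 2 or siGAR1 replicate 1.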

How the data were processed

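RNA-seq was analysed in 9 libraries of nuclear RNA, 3 per siRNA group. Per the labels and the study's methods, the authors depleted rRNA, made CORALL total RNA libraries, checked and trimmed reads with FastQC 0.11.9 and Trim Galore 0.6.4, removed rRNA and tRNA reads with Bowtie2 2.4.1 and quantified GENCODE 27 transcripts on GRCh38 with Salmon 1.2.0. STAR 2.7.0e and Picard are also named. The authors deposited an estimated count and a TPM value per transcript and library; TPM entered only the lengthScaledTPM alternative. In 16 nested transcript pairs of 11 members the longer transcript never had fewer reads, as if a read had been counted in each transcript that holds it, so gene sums may depend on the annotation.

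Here, 195887 of 200401 transcripts were matched to GENCODE 44 by identifier without version. The unmatched 4514 held 3.69 to 3.84% of the reads. Estimated counts were summed per gene and rounded. edgeR 4.0.16 in R 4.3.3 was used with filterByExpr, TMM factors (0.982 to 1.02) and a robust quasi-likelihood F-test on all 9 libraries without covariates, with Benjamini-Hochberg adjustment over all genes tested. A gene passed at an adjusted p under 0.01. The common biological coefficient of variation was 0.0886. Transcript usage was tested with diffSpliceDGE. Normalized reads are scaled to the mean library. DESeq2 1.42.0 served as an alternative. Tables and plots were made with Python 3.11.15, pandas 2.3.3 and matplotlib 3.10.9. The gene and transcript tests were run on simulated data. Those counts were drawn independently for each transcript, so reads counted in several transcripts were not covered.

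The members and gene lists were chosen with earlier results of these data known. Named genes were members that passed in a comparison, the 2 with the highest per-length level in each role, snoRNA hosts, members with passing transcript usage, DKC1 and GAR1. Others, named for their role, position in the range or nearness to the threshold, were chosen after their values were seen. The p-values measure the spread between these libraries; the labels call them replicates only. The labels do not pair same-numbered libraries, and these deviated together little (correlations of -0.07 to 0.10), so no pairing was used. With a replicate block the genes passing went from 1180 to 1318 after siDyskerin and from 630 to 711 after siGAR1. Between the knockdowns they went from 994 to 1050.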

Additional observations from a re-analysis of the deposited data

Results flagged for a closer look

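The following 4 results differed between the 2 knockdowns by a direct test. EIF5A was lower in siDyskerin than in siGAR1 by -0.40 on the log2 scale (adjusted p = 0.0012, edgeR). EIF4EBP1 was higher in siDyskerin than in siGAR1 by 0.37 (adjusted p = 0.0075), and EIF4A2 was lower by -0.25 (adjusted p = 0.0095). The transcript EIF4A1-212 was lower relative to the rest of its gene by -0.82 (adjusted p = 1.2e-09 for EIF4A1 as a whole, edgeR's diffSpliceDGE). The transcript counts that this test compares may share reads with each other and with SNORA48. Groups of 3 libraries are too small for a test of outlying samples.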

How the results depend on the processing

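The gene-level counts, medians and named calls were recomputed under alternatives of normalization, filter, counting, test and libraries, and transcript usage under a replicate block, another filter and 1 library left out, those for snoRNA and pathway genes having been added after the data were seen. Per-length levels, start-site medians and the remainder of EIF4A1-212 had no alternative. The count of 1 member after siDyskerin became 2 with DESeq2, without the count filter and at an adjusted p under 0.05, and ranged from 0 to 1 when 1 library was left out. The count of 2 after siGAR1 became 9 with DESeq2 and at an adjusted p under 0.05, 4 without the filter and with the most-read transcript alone, 1 with lengthScaledTPM counts and with only the 2 groups compared, and 11 with lengthScaledTPM counts and DESeq2, and ranged from 0 to 1 with 1 library left out. With DESeq2, 9.33% of all genes passed after siGAR1, or 8.67% on lengthScaledTPM counts, against 9 of 62 and 11 of 61 members. DESeq2 called EEF1AKMT3, EIF3A, EIF3F, EIF4A2, EIF4E3, EIF4EBP1 and EIF5 there beside EIF4G3 and GSPT1. On lengthScaledTPM counts it also called EIF2B3, EIF4E2 and EIF4ENIF1, but not EIF4E3. The count of 3 between the knockdowns became 1 with lengthScaledTPM counts and with only the 2 groups compared, and 5 with lengthScaledTPM counts and DESeq2 and at an adjusted p under 0.05, and ranged from 1 to 3. For the pathway genes, the count of 5 after siDyskerin ranged from 2 to 5 with 1 library left out. The count of 2 after siGAR1 became 6 with DESeq2 on either kind of counts, 5 without the filter and with the most-read transcript, 4 with protein-coding transcripts, 4 with the replicate block and 1 with lengthScaledTPM counts, and ranged from 1 to 3. Their count of 3 between the knockdowns became 6 with DESeq2, 1 with lengthScaledTPM counts and 5 with both, and ranged from 0 to 3. The count of 5 snoRNA genes between the knockdowns ranged from 2 to 5. EIF4A2 after siDyskerin turned from -0.04 to 0.03 with protein-coding transcripts only, where the snoRNA genes have no value. The medians of the members stayed at -0.018 to 0.016 after siDyskerin, and transcript usage gave the same counts in all 11 alternatives. The replicate block was tried although the labels do not pair the libraries. It also lost EIF4A2 between the knockdowns (-0.25, adjusted p = 0.011) and SNORA81 and GSPT2 after siDyskerin. PPP1R15B was lost between the knockdowns as well, and 4 snoRNA genes were left after siDyskerin. Apart from EIF5A between the knockdowns, each gene-level call of a member was lost when some single library was left out, and the causes of these changes were not tested. With 3 libraries a group, in 1 cell line at 1 time, small differences may be missed. Nuclear RNA gives no view of translation or protein.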
